A study of Mus musculus with 24 samples.

Results

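A set of 10 marker genes of the gut's muscle coat and pacemaker cells was followed through the 4 deposited tables of gene fits: Acta2, Actg2, Myh11, Tagln, Cnn1, Des, Myocd, Kit, Ano1 and Etv1. Members were chosen by gene symbol, and each was found in every table, among 23679 genes that the tables share. Poly-A RNA had been sequenced from 24 whole mouse guts at embryonic day 12.5, and all animals shared a background mixed from C57BL/6, 129/Sv and C3H. Wildtype, Ret null homozygote, Sema3d null homozygote and Ret-Sema3d double null homozygote guts had 6 guts each, 3 female and 3 male. The series examined the genetic interaction of Ret, the receptor of GDNF-family ligands, and Sema3d, a secreted guidance cue, in the developing enteric nervous system. The labels do not name the alleles, say which guts were littermates or state which part of the gut was taken. The p-values set each difference against the spread between these guts and treat the guts as independent. Shared litters could not be allowed for, so the p-values may be too small.

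The muscle of the gut wall forms from mesenchyme around the epithelial tube, in layers that differentiate while neural crest cells colonise the gut. Serum response factor, encoded by Srf, binds a DNA element called the CArG box and, with its coactivator myocardin (Myocd), drives the contractile genes. Those genes encode smooth muscle alpha-actin (Acta2), gamma-actin (Actg2), the smooth muscle myosin heavy chain (Myh11), transgelin (Tagln) and calponin (Cnn1), while Des encodes desmin, the intermediate filament of muscle. Interstitial cells of Cajal are the pacemaker cells of gut muscle and arise from the same mesenchyme. They depend on the receptor tyrosine kinase KIT, carry the calcium-activated chloride channel ANO1, and express the ETS-family transcription factor ETV1. None of the 10 genes is private to these cells: vessel walls make the contractile proteins, Kit is expressed by mast cells, melanoblasts and germ cells, and Etv1 by some peripheral neurons.

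Because the CArG element is the known binding site of serum response factor, the windows around the start sites were searched for it. Windows from 250 bases before to 50 bases after the RefSeq start site (GRCm38.p6) were held for 6 of the 10 genes (Acta2, Cnn1, Des, Kit, Ano1 and Etv1), and both strands were searched. A strict match has a pair of Cs, 6 bases that are each A or T, and a pair of Gs, and a relaxed match allows 1 of the 6 central bases to be C or G. The Acta2 window held 2 relaxed matches and no strict one, 84 and 34 bases before the start site. The windows of Cnn1, Des, Kit, Ano1 and Etv1 held no match of either kind, so 1 of 6 members had a relaxed and 0 of 6 a strict match. Strict matches in Srf itself and in Myl9, the regulatory myosin light chain of smooth muscle, are given for comparison, and capitals mark the matched element in its strand's 5′ to 3′ direction.
Acta2, chr19:34255438-34255467, minus strand: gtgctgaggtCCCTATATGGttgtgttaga
Acta2, chr19:34255388-34255417, minus strand: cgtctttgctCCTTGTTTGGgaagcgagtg
Srf, chr17:46556225-46556254, minus strand: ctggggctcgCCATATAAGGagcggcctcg
Srf, chr17:46556205-46556234, minus strand: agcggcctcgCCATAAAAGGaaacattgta
Myl9, chr2:156775293-156775322, plus strand: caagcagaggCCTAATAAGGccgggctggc
Of all 32851 windows of the same length, 535 (1.63%) held a strict match and 3280 (9.98%) a relaxed one. Of 24 other contractile and cytoskeletal genes, 4 held a strict match in a window (Myl9, Cnn2, Myl6 and Vcl) and 7 at least a relaxed one. Members and these genes were counted by gene and all windows by window, so the shares are not in the same unit. These matches describe the letters of the windows and are no measure of binding.

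In the genome (GRCm38), Acta2 lies on chromosome 19 (34241090 to 34255590, minus strand) and Actg2 on chromosome 6 (83512905 to 83536265, minus strand). Myh11 spans 14194535 to 14291372 on the minus strand of chromosome 16. Tagln (45929619 to 45936058, minus strand) and Cnn1 (22099216 to 22109630, plus strand) share chromosome 9, and Des lies on chromosome 1 (75360329 to 75368579, plus strand). Myocd was annotated on chromosome 11 (65176561 to 65269989, minus strand), Kit on chromosome 5 (75574916 to 75656722, plus strand) and Ano1 on chromosome 7 (144588549 to 144751974, minus strand). Etv1 occupies 38779380 to 38870484 on the plus strand of chromosome 12. Reads could be assigned with little overlap between genes: of the distinct 100-base stretches in the transcripts of all members but Etv1, 0 occur in another gene's transcripts, and Acta2 and Actg2 share identical runs of at most 29 bases. Of the 13869 stretches of Etv1, 939 (6.77%) also occur in the pseudogene Gm5454, whose fitted wildtype level was only 6.80 to 7.17 in the 4 tables.

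All values rest on fits to groups of guts, and a level is given as a fitted mean in normalised counts (reads scaled to a common library size). The error after ± is a standard error derived from each fit's deviances. The number of reads behind each library is unknown from the tables; the labels give only the depth that was aimed at. The targeted genes followed the labels: in the authors' deposited tables Ret changed by -8.34 ± 0.24 (log2) where it was null alone and by -10.36 ± 0.29 in double nulls, and Sema3d by -1.06 ± 0.11 and -1.04 ± 0.07 in the corresponding guts. Sema3d RNA thus remained at 47.8% and 48.6% of wildtype in guts labelled null for it. In Ret null guts, which are not labelled null for it, Sema3d fell as well, to 83.1% of wildtype (-0.27 ± 0.06, adjusted p = 0.000882, in the authors' deposited table).

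Transcripts of gut muscle were present at substantial levels. Per kilobase of exon, wildtype levels were 2336 normalised counts for Acta2, 793 for Actg2, 304 for Tagln, 287 for Myocd and 269 for Myh11, followed by 222 for Ano1, 168 for Kit, 146 for Cnn1, 123 for Des and 47.0 for Etv1. Acta2 was thus the leading transcript per length, and each member exceeded a level of 398 normalised counts in wildtype before division by length. Vascular mural cell genes were plentiful too, with a summed level over 7 genes (Rgs5, Notch3, Cspg4, Kcnj8, Abcc9, Mcam and Heyl) of 6055 in wildtype, 5894 in Ret null, 6005 in Sema3d null and 6668 in double null samples. By contrast, 5 of 6 fitted skeletal muscle markers were under 10 normalised counts in wildtype, and their sum was 77.3 in wildtype, 11.5 in Ret null, 26.5 in Sema3d null and 14.7 in double null samples. The cardiac markers summed to 161 to 182 over the 4 genotypes. Of the other cells that use Kit, the summed levels ranged over the genotypes from 19.2 to 33.4 for mast cell, 8.23 to 11.5 for melanoblast and 11.5 to 15.5 for germ cell markers, against 1376 to 1598 for Kit. These sums cover only the markers with a bounded fit, 3 of 6 for mast cells, 4 of 5 for melanoblasts and 4 of 5 for germ cells.

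Fitted group means were compared first. The 5 contractile genes had their highest genotype mean in Sema3d null guts and their lowest in Ret null guts. Acta2 stood at 5130 normalised counts in wildtype, 4860 in Ret null, 6099 in Sema3d null and 5255 in double null guts. Myh11 followed the same order, with 2048, 1754, 2591 and 2133. Actg2 was fitted at 1234, 1155, 1537 and 1232, so its wildtype and double null means nearly coincided. Tagln stood at 604, 562, 719 and 626 and Cnn1 at 398, 383, 531 and 411 in the same order of genotypes. No genotype differed from its neighbour in the order, or from any other genotype, beyond the derived 95% interval for any of these 5 genes.

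The remaining genes had narrower intervals. Des was fitted at 462 normalised counts in wildtype, 510 in Ret null, 521 in Sema3d null and 487 in double null guts. Myocd stood at 1846, 1990, 1546 and 1944, with Sema3d null guts lowest, the opposite end from the contractile genes. Kit varied from 1376 in Sema3d null to 1598 in double null guts, around 1494 in wildtype and 1482 in Ret null guts. For Ano1 both genotypes without Ret were high, at 1609 in Ret null guts and 1577 in double null guts, against 1385 in wildtype and 1319 in Sema3d null guts. For Etv1 the same genotypes were low, at 490 and 492 against 624 in wildtype and 574 in Sema3d null guts. Neighbours in the order did not differ beyond their interval for any of the 10 genes. The distance from highest to lowest genotype exceeded the interval of a single pair for Myocd (1.29-fold), Ano1 (1.22-fold) and Etv1 (1.27-fold). That interval makes no allowance for picking the highest and lowest genotype after the means were seen, so it is lenient for these distances. How many of all genes exceed it was not computed, and the distances are a description.

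**Figure D1:**
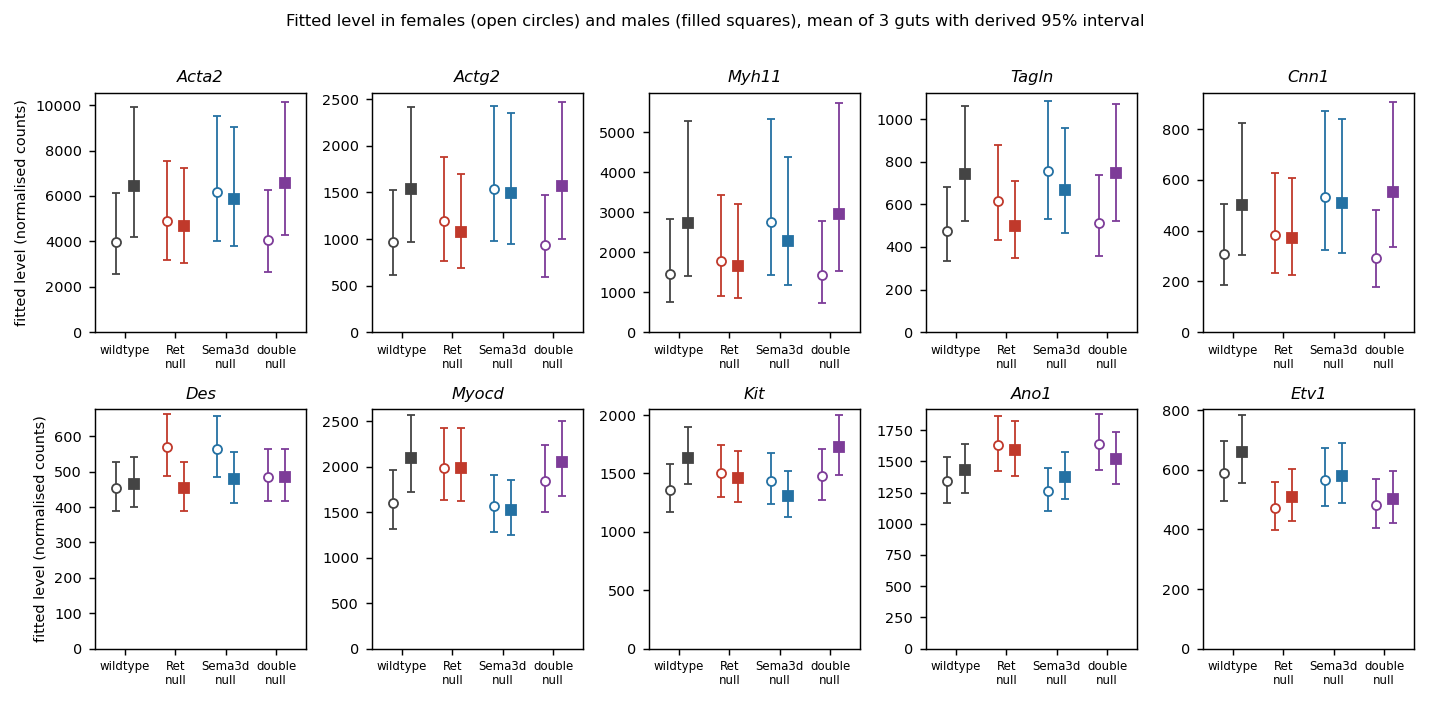
Fitted level (normalised counts, linear axis from 0) of the 10 genes in females (open circles) and males (filled squares) of each genotype, each a mean over 3 guts with its derived 95% interval. The contractile genes Acta2, Actg2, Myh11, Tagln and Cnn1 are higher in males of the wildtype and double null genotypes and lower in males of the other genotypes (Acta2 by a log2 difference of -0.07 and -0.08, Tagln by -0.31 and -0.18), with overlapping intervals throughout, and Etv1 is lower in Ret null and double null guts of both sexes.

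Ret null guts were compared with wildtype to ask what the loss of Ret alone does. Etv1 was the member that passed the test: its level fell to 78.6% of wildtype, a log2 change of -0.35 ± 0.09 (adjusted p = 0.00433) in the authors' deposited table. The call was 1 of 10 members lower and 0 of 10 higher, beside 2.66% of all 24602 tested genes called in either direction, 2.27% lower and 0.386% higher. Those shares include many weakly expressed genes, while every member was well expressed. With p adjusted over genes with a level of at least 50, of which there were 12144, 527 genes were called in either direction. Ano1 was 116% of wildtype, with a log2 change of 0.22 ± 0.08 in the authors' deposited table, but it missed the threshold after adjustment (p = 0.00685, adjusted p = 0.179). Des also had an unadjusted p below the threshold (0.14 ± 0.07, p = 0.0448, adjusted p = 0.566 in the authors' deposited table). Kit, at -0.01 ± 0.08, had a 95% interval from -0.16 to 0.14, computed from the authors' deposited table. Myocd gave 0.11 ± 0.14 in the authors' deposited table.

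The contractile genes gave small changes with wide errors in Ret null guts. Log2 changes in the authors' deposited table were -0.08 ± 0.25 for Acta2, -0.10 ± 0.24 for Actg2, -0.22 ± 0.37 for Myh11, -0.10 ± 0.20 for Tagln and -0.06 ± 0.29 for Cnn1. For Acta2 the interval allowed a level between 0.673 and 1.33 times wildtype, and for Myh11 between 0.521 and 1.41 times. The median over the 10 members was -0.07, against 0.01 over the 12144 genes fitted at 50 normalised counts or more.

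Sema3d null guts gave no call among the members. The authors' deposited table called 0.0404% of 24747 genes, 0 of the 10 members passed, and 0 had an unadjusted p below the 0.05 threshold. The contractile genes lay above wildtype by 0.25 ± 0.34 (Acta2), 0.32 ± 0.35 (Actg2), 0.33 ± 0.50 (Myh11), 0.26 ± 0.29 (Tagln) and 0.41 ± 0.38 (Cnn1) on the log2 scale in the authors' deposited table, and each derived 95% interval included 0. Myocd, which encodes their coactivator, was -0.25 ± 0.16 (p = 0.126, adjusted p = 1.000) by the authors' deposited table. Des was at 0.18 ± 0.14, Kit at -0.12 ± 0.13, Ano1 at -0.07 ± 0.12 and Etv1 at -0.12 ± 0.13 in the authors' deposited table. The interval for Etv1 reached from -0.37 to 0.14, which includes the value measured in Ret null guts. The median over the members was 0.22, against 0.00 over the 12209 genes with a level of at least 50, and it rests on the contractile genes with their wide errors.

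Double null guts gave the same Etv1 value as Ret null guts, in a comparison that shares the 6 wildtype guts. Etv1 stood at 78.6% of wildtype (-0.35 ± 0.07, adjusted p = 2.78e-05, in the authors' deposited table). It was again the 1 member of 10 that passed, where 2.1% of 24663 genes were called, 1.87% lower and 0.231% higher. With p adjusted over genes with a level of at least 50, of which there were 12158, 386 genes were called in either direction. Ano1 was at 0.19 ± 0.11 (p = 0.0787, adjusted p = 0.888) and Kit at 0.10 ± 0.05 (p = 0.0650, adjusted p = 0.838) in the authors' deposited table. Neither passed. The 5 contractile genes were between -0.01 ± 0.18 (Actg2) and 0.06 ± 0.16 (Tagln) in the authors' deposited table, with Acta2 at 0.04 ± 0.16, Myh11 at 0.05 ± 0.28 and Cnn1 at 0.03 ± 0.22. Myocd gave 0.08 ± 0.09 and Des 0.08 ± 0.07 by the authors' deposited table. The errors of the contractile genes were smaller than in the other comparisons, and the interval for Acta2 covered 0.822 to 1.28 times wildtype.

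**Figure D2:**
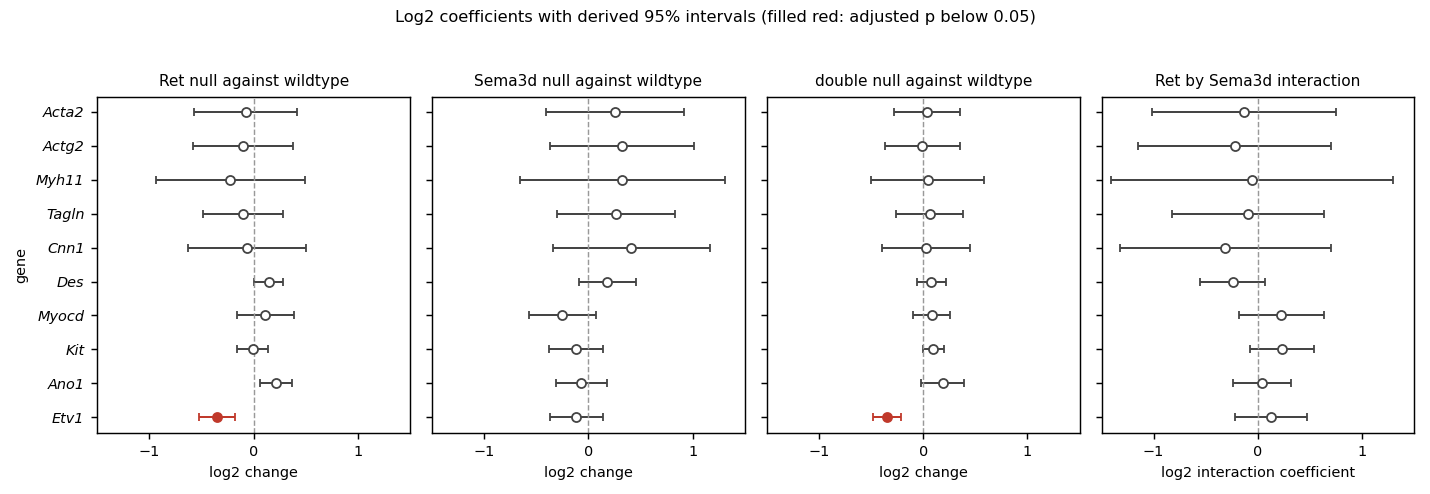
Log2 change of each gene against wildtype in 3 panels, and log2 interaction coefficient in the fourth, with derived 95% intervals and filled red points where the adjusted p was below 0.05. Etv1 is filled in the Ret null and double null panels (-0.35 in both), and the bars of the 5 contractile genes are the widest in every panel.

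The double null genotype was set against each single null within the 24-gut fit, for which the tables list no p and derived intervals are given. Etv1 differed by 0.00 ± 0.13 (log2) between double null and Ret null guts, with an interval from -0.24 to 0.25. For the 10 genes, 0 intervals lacked 0 in that contrast. Against Sema3d null guts, double null guts were higher in Myocd by 0.33 ± 0.15 and in Ano1 by 0.26 ± 0.10, and these 2 of 10 intervals lacked 0. The share of all genes with such an interval was not computed, and the intervals are not adjusted for the number of genes. Etv1 was at -0.22 ± 0.13 and Kit at 0.22 ± 0.11 in the same contrast, and both intervals included 0.

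The interaction of Ret and Sema3d was tested by the authors over all 24 guts. None of the 10 members passed in the authors' deposited table, where 0.164% of 26258 genes did, and 0 of 10 had an unadjusted p below 0.05. The coefficient was 0.12 ± 0.18 for Etv1 (adjusted p = 0.959), 0.23 ± 0.16 for Kit and -0.24 ± 0.16 for Des in the authors' deposited table. For the contractile genes the coefficients ran from -0.31 ± 0.52 (Cnn1) to -0.06 ± 0.69 (Myh11) in the authors' deposited table. The interval for Myh11 reached from 0.378 to 2.45 times, so a sizeable interaction was not detectable for that gene at this spread. For Ano1 it reached from 0.849 to 1.25 times.

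The contractile genes varied far more between guts than most genes of the tissue. From each derived error and level, the coefficient of variation between guts after the terms of the fit can be computed. Each fit holds the same sex term for all its genotypes, so a sex difference that changes with genotype may count as spread here. How much of the spread this makes up was not tested. In the fit of wildtype and Ret null guts it was 43.9% for Myh11, 34.1% for Cnn1, 30.2% for Acta2, 29.1% for Actg2 and 23.1% for Tagln, against a median of 7.72% over 12138 genes. Myocd followed with 16.6%. Etv1 (9.79%), Ano1 (9.18%), Kit (8.83%) and Des (7.20%) were close to that median. The contrast held in the fit with Sema3d null guts, where Cnn1 reached 45.8% and Acta2 40.4% against a median of 12.1%. It was least in the fit with double null guts, with 33.1% for Myh11, 19.5% for Acta2 and a median of 7.85%. Of all genes, 97.7% had a smaller error than Acta2 and 98.9% a smaller error than Myh11 in the Ret null fit. For Des, which encodes another muscle protein, 43.7% of genes had a smaller error in the Ret null fit, 41.5% in the double null fit, 74.2% in the Sema3d null fit and 66.8% in the fit over 24 guts.

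**Figure D3:**
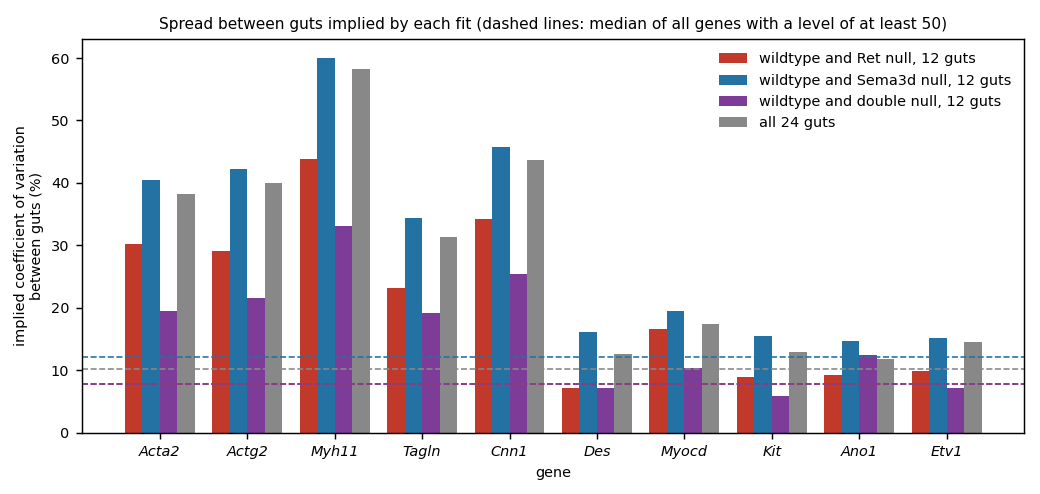
Coefficient of variation between guts (percent, bars from 0) implied by the 3 fits over 12 guts and the fit over all 24, with dashed lines at the median of all genes with a level of at least 50. The 5 contractile genes stand at 19.2% or more in every fit, while Des, Kit, Ano1 and Etv1 lie at 16.1% or less.

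The contractile genes differed between the sexes in the fit of wildtype and double null guts. Its sex term, male minus female on the log2 scale, was 0.70 ± 0.16 for Acta2, 0.71 ± 0.18 for Actg2, 0.98 ± 0.28 for Myh11, 0.59 ± 0.16 for Tagln and 0.81 ± 0.22 for Cnn1 in the authors' deposited table. Myh11 was thus 1.97 times and Acta2 1.62 times as high in males. Myocd (0.27 ± 0.09) and Kit (0.25 ± 0.05) were higher in males as well in the authors' deposited table. The derived 95% interval lacked 0 for these 7 of 10 members, beside 6.08% of all genes with a level of at least 50. Ano1 (-0.01 ± 0.11), Des (0.02 ± 0.07) and Etv1 (0.11 ± 0.07) had intervals that included 0 in the authors' deposited table. The tables list no p for the sex term, so these intervals are a description.

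In the other fits the sex terms of the contractile genes, Myocd and Kit were smaller. With Ret null guts the authors' deposited table gave 0.17 ± 0.20 (Tagln) to 0.40 ± 0.37 (Myh11) for the contractile genes, and an interval without 0 for Des alone, which was lower in males (-0.15 ± 0.07), beside 3.93% of all genes. With Sema3d null guts and over all 24 guts, 0 of the 10 intervals lacked 0, beside 2.84% and 3.3% of all genes. The fits share the wildtype guts, and the difference between their sex terms was not tested.

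**Figure D4:**
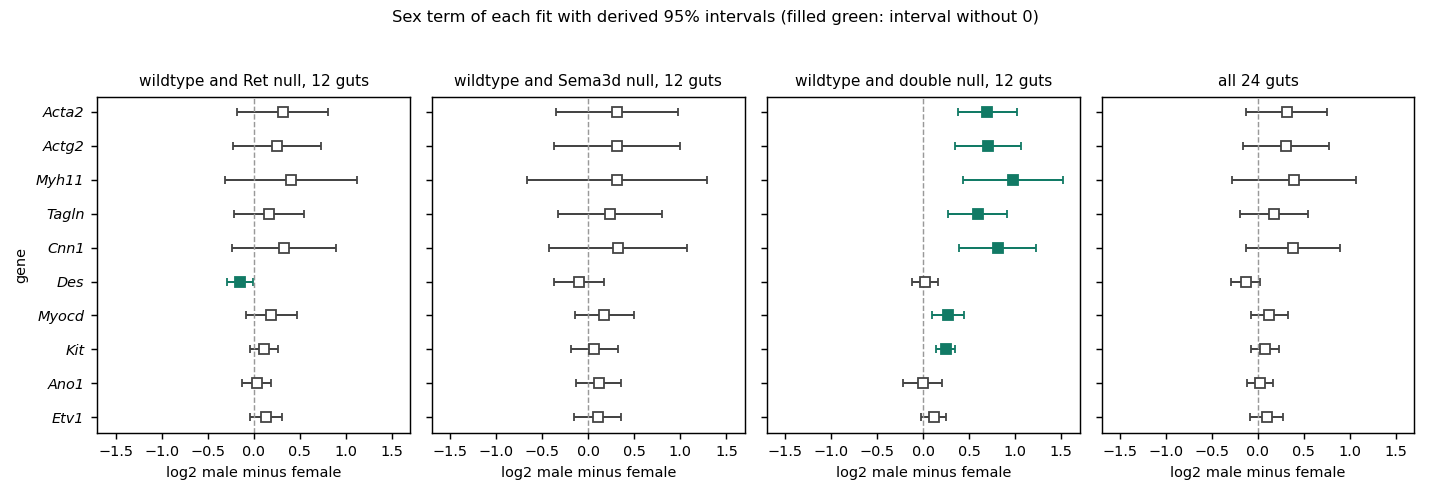
Sex term (log2, male minus female) of the 10 genes in the 3 fits over 12 guts and in the fit over all 24, with derived 95% intervals and filled green squares where the interval lacks 0. In the fit of wildtype and double null guts 7 genes are filled, led by Myh11 at 0.98, and in the other fits Des with Ret null guts is the only one.

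The 4 sex terms of a gene also fix its sex difference within each genotype, because each term is the mean of the differences of the genotypes in that fit. Solved this way, Acta2 was fitted at 3967 normalised counts in wildtype females and 6441 in wildtype males, and at 4069 and 6592 in double null females and males. In Ret null guts the values were 4900 in females and 4681 in males, and in Sema3d null guts 6169 and 5853. Males were therefore higher by 0.70 (log2) in wildtype and in double null guts, and the difference was -0.07 and -0.08 in Ret null and Sema3d null guts, each with an error of 0.45. Myh11 ranged from 1433 in double null females to 2962 in double null males, with 1460 and 2732 in wildtype females and males, 1772 and 1656 in Ret null, and 2754 and 2267 in Sema3d null guts. The lowest of the 8 groups was female and of the wildtype or double null genotype for each of the 5 contractile genes. Cnn1, for one, was fitted at 292 in double null females, 308 in wildtype females and between 370 and 551 in the 6 other groups.

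The pacemaker genes and desmin showed other patterns over the 8 groups. Etv1 was fitted at 589 in females and 661 in males of the wildtype, at 473 and 508 in Ret null, 567 and 581 in Sema3d null, and 481 and 502 in double null guts. Both genotypes without Ret had lower fitted Etv1 values than wildtype and Sema3d null guts in each sex. Each value is a mean over 3 guts, and the Etv1 sex differences had an error of 0.18. Ano1 was at 1628 in females and 1589 in males of the Ret null and 1638 and 1516 of the double null genotype. The 4 other groups ranged from 1261 to 1433. The share of all genes whose groups separate in such a way was not computed, and these separations were not tested. Kit was highest in double null males (1726) and wildtype males (1634), with the 6 other groups from 1308 to 1504. Des was highest in Ret null females (569) and Sema3d null females (566), with the 6 other groups from 453 to 486. Its sex difference of -0.33 ± 0.16 in Ret null guts was the only one of 40 whose interval lacked 0. Of all genes, 1.87% had such an interval in wildtype, 0.772% in Ret null, 4.61% in Sema3d null and 1.68% in double null guts. The errors behind these intervals come from the fit over all guts, which has no sex-by-genotype term. Where a sex difference changes with genotype they may be too wide, so the count cannot show that the other differences are absent. For Acta2 the error was 0.45 in every genotype, while the fit of wildtype and double null guts gave a sex term of 0.70 ± 0.16. Marker lists of other cells also had sex differences with medians off 0, for which no interval was computed. The 7 enteric neuron markers were all higher in males in wildtype (median 0.21). Their medians were -0.01 in Ret null, 0.04 in Sema3d null and 0.04 in double null guts. The 6 epithelial markers were all higher in males in wildtype (median 0.22), Sema3d null (0.11) and double null guts (0.27), and 2 of 6 were in Ret null guts (-0.04). The 6 crest and glia markers had medians of 0.11 in wildtype, -0.14 in Ret null, 0.13 in Sema3d null and 0.24 in double null guts, and the 4 mesothelial markers with a level of at least 50 had 0.09, -0.08, 0.09 and 0.12. The contractile genes had differences from -0.28 ± 0.69 (Myh11) to -0.04 ± 0.47 (Actg2) in Sema3d null guts, and each interval included 0. Vascular mural markers had medians of -0.01 in wildtype, -0.04 in Ret null, -0.15 in Sema3d null and -0.05 in double null guts. The part of these cell types in the sex differences was not tested.

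Genes that work with the members were counted in 4 lists. Of 24 further contractile and cytoskeletal genes, 1 fell in Ret null guts and 23 did not pass, beside 2.27% of all tested genes called lower, and the median log2 change was 0.06. With a list of this length, 1 call is near that share. The gene that fell was Synm, which encodes synemin, a filament protein that binds desmin in muscle and is also made by some glial cells. By the authors' deposited tables its log2 change was -0.98 ± 0.15 with Ret absent (adjusted p = 1.98e-08) and -0.87 ± 0.15 with both genes targeted (adjusted p = 8.70e-07). In double null guts it was again the 1 of 24 that passed, beside 2.1% of all tested genes, with a list median of 0.05. Hspb7 (0.94 ± 0.29, adjusted p = 0.0536) and the integrin gene Itga8 (0.16 ± 0.05, adjusted p = 0.0970) came closest to passing among the rest there, by the authors' deposited table. In Sema3d null guts 0 of 24 passed and the median was 0.09, with the smallest p for Pdlim7 (0.20 ± 0.09, p = 0.0276) in the authors' deposited table. The sex term of this list had the same direction as that of the members. In the fit with double null guts 16 of the 23 genes with a level of at least 50 had an interval above 0 and 0 an interval below. With Ret null guts these counts were 3 and 0. Of all genes at that level, 6.08% with double null and 3.93% with Ret null guts had an interval without 0 in either direction. The male excess was not particular to muscle genes: 5 of 6 gut epithelium markers had an interval above 0 in the fit with double null guts. None of the 5 endothelial or 7 vascular mural markers did in that fit. Mylk, the kinase of the myosin light chain, had a sex term of 0.53 and Myl9 one of 0.49 in that fit of the authors' deposited table.

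Of 18 measured regulators, 1 fell in both comparisons of guts without Ret and 0 rose, beside 2.27% (Ret null) and 1.87% (double null) of all tested genes called lower. Mef2c, a MADS-box factor of muscle that also acts in neural crest and neurons, changed by -0.41 ± 0.07 (Ret null, adjusted p = 9.20e-08) and by -0.25 ± 0.07 (double null, adjusted p = 0.0137) in the authors' deposited tables. Srf itself was at 0.13 ± 0.05 in Ret null guts (p = 0.0114, adjusted p = 0.252), and Barx1, a homeobox gene of stomach mesenchyme, 0.31 ± 0.11 with an adjusted p of 0.153, both from the authors' deposited table. In Sema3d null guts 0 of 18 passed, and the smallest p was that of Nkx3-2 (-0.30 ± 0.12, p = 0.0140, adjusted p = 0.914) in the authors' deposited table. Of 12 receptors and ion handling genes, Cacna1c, the pore of the L-type calcium channel of muscle and neurons, fell in Ret null guts by 0.48 ± 0.08 (log2, adjusted p = 3.33e-08) in the authors' deposited table, and the other 11 did not pass, beside the same 2.27% of all genes. In double null guts its value was -0.26 ± 0.08 (adjusted p = 0.0702) in the authors' deposited table, and 0 of 12 passed.

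Of 11 further genes of interstitial Cajal cells and their PDGFRA-positive neighbours, 1 rose in Ret null guts, where 0.386% of all tested genes were called higher. Gpr20, an orphan receptor found in interstitial cells of Cajal, was higher by 0.38 ± 0.09 in Ret null guts (adjusted p = 0.00154) and had 0.26 ± 0.10 in double null guts (adjusted p = 0.278), per the authors' deposited tables. Pdgfra was at 0.12 ± 0.04 (adjusted p = 0.135) and 0.12 ± 0.05 (adjusted p = 0.256) in the same order in the authors' deposited tables. In Sema3d null guts 0 of 11 passed, and 0 genes of the 4 lists passed for the interaction in the authors' deposited table.

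**Figure D5:**
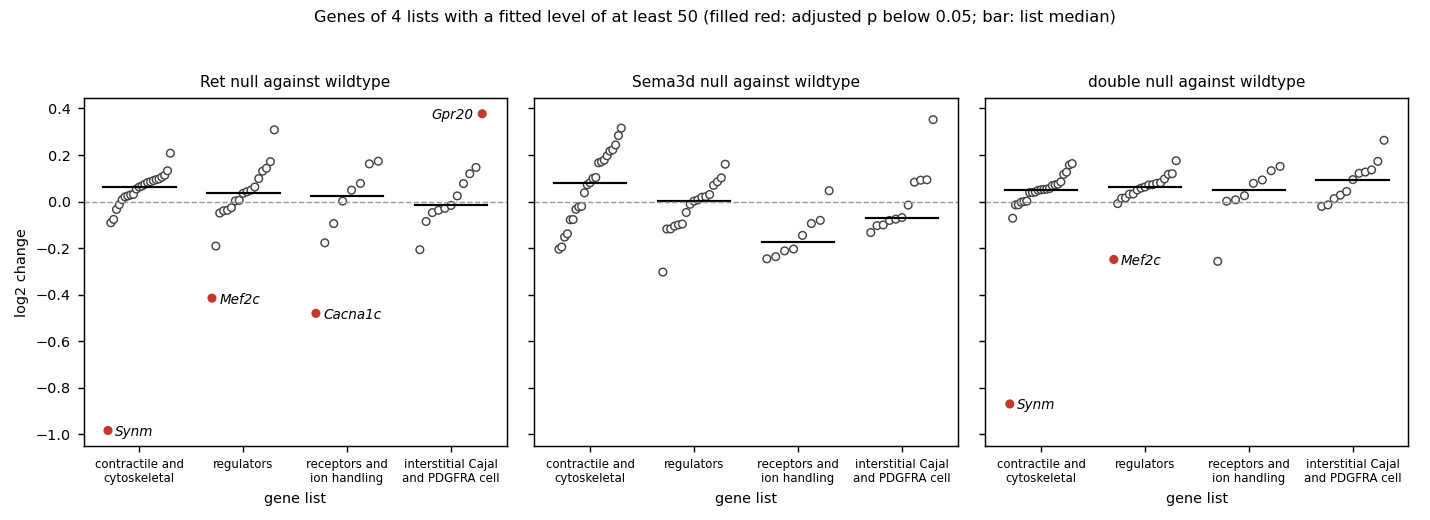
Log2 change (vertical axis) of list genes fitted at 50 normalised counts or more, for each null genotype against wildtype, with list medians as bars and called genes in filled red. Synm and Mef2c are filled and low with Ret null and double null guts, Cacna1c low and Gpr20 high with Ret null guts, and 0 genes are filled with Sema3d null guts.

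Etv1, Synm and Mef2c were called lower in both genotypes without Ret, and Cacna1c in Ret null guts only. Neural markers were lower in both of these genotypes too. The 7 enteric neuron markers summed to 2973 normalised counts in wildtype, 359 in Ret null, 2811 in Sema3d null and 384 in double null guts, and all 7 were called lower in both comparisons of guts without Ret. The 6 crest and glia markers summed to 3458, 1427, 3119 and 1474, with 5 of 6 called lower in Ret null guts and 6 of 6 in the double nulls. In whole-gut RNA, fewer cells of a type and less RNA per cell cannot be told apart, and the part of neural cells in the Etv1 value was not tested. Of the vascular mural markers, Heyl was called lower in Ret null guts, and 4 of 5 endothelial markers were called higher in double null guts, where their sum was 5536 against 4631 in wildtype.

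The genes whose genotype pattern lay nearest to that of Etv1 were found over the 3 log2 differences from wildtype in the 24-gut fit, among 12175 genes with a level of at least 50. By Euclidean distance they were Ncald (0.0571), Chn2 (0.0579), Il1rap (0.0680), Ncam2 (0.0733) and Hist1h2ag (0.0763), and 17 genes lay within 0.1. Ncald, the nearest, differed from wildtype by -0.38 in Ret null, -0.08 in Sema3d null and -0.32 in double null guts, where Etv1 had -0.35, -0.12 and -0.34. The ranking compares 4 genotype means and carries no test.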

How the data were processed

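RNA of single guts was sequenced as 100 bp read pairs from stranded poly-A libraries, per the labels' protocols. The authors' tools were DESeq 1.24.0, RSEM 1.2.31, STAR, Trimmomatic 0.36 and FastQC 0.11.5, on GRCm38, per the submitters' processing notes, which give no roles. Per the file headers, the tables hold negative binomial model fits: log2 coefficients, deviances (treated as a score of fit), p-values and adjusted p-values, all deposited by the authors. The interaction table's coefficients are other values in that a few unbounded fits exceed the range of log2 values. The base is not named; with base 2 the exponentiated intercepts sum to 11.5 to 12.0 (in units of 1000000 counts) per table and with base e to 432 to 458, so base 2 was used. In the Ret null table the symbol and type headers are exchanged, and both were read by content. Calls use the deposited adjusted p below 0.05 over the whole table.

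Computed here (Python 3.11.15, numpy 2.4.6, pandas 2.3.3): the standard error, as the coefficient's size over the square root of the deviance difference; 95% intervals; levels, as 2 to the power of the coefficients averaged over sexes; the spread between guts; and the sex difference per genotype, by solving the 4 sex terms. The scripts were tested on simulated data with known answers, which both derivations recovered. The simulated fits were given each gene's true spread, the same in every fit, so they checked the algebra only. In the deposited 12-gut fits the implied spread of Acta2 ran from 19.5% to 40.4%. How the derived errors hold where the spread differs between fits was not tested. For the X-linked genes Kdm6a, Kdm5c and Eif2s3x, solved differences were below 0 in all 4 genotypes (-0.34 to -0.70). With the same direction in every genotype, these genes do not check a sex difference that changes with genotype. Exon lengths are from GENCODE M21. The 10 genes and the lists were chosen with earlier results of these data known, and the solved sex differences were added after the sex terms had been seen. Named are all members, Ret, Sema3d, called list genes and list genes among the 3 smallest p of a table; Mylk, Myl9 and the 3 X-linked genes were named after their values were seen. Alternatives changed the genes adjusted over, the threshold, the fit and the centring.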

Additional observations from a re-analysis of the deposited data

How the results depend on the processing

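The number of members called stayed at 1, 0, 1 and 0 (Ret null, Sema3d null, double null, interaction) when p was adjusted over genes with a level of at least 50 or over protein-coding genes, without fits marked as not converged, and at thresholds of 0.1 and 0.01. Among list genes, Cacna1c in double null guts passed when adjusted over genes with a level of at least 50 (adjusted p = 0.0488, from the authors' DESeq p-values). The members' log2 changes from the 24-gut fit differed by at most 0.0149, centring moved them by at most 0.00708, and the ratio of levels between fits was at most 1.03. Over all genes, the interaction count was 43, and 22 without fits marked as not converged, 65 at a threshold of 0.1 and 14 at 0.01; the Sema3d null count was 10, and 6 over protein-coding genes, 17 at 0.1 and 5 at 0.01. No paired analysis was possible because the tables give no value per gut; for the same reason leaving out each replicate was not run, and how far 1 gut decides a value is unknown. The depth per library is unknown. The wide errors of the contractile genes set what could be detected for them. The errors of the sex differences per genotype come from the 24-gut fit, which has no sex-by-genotype term.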
